A study of Mus musculus with 2 samples.

Results

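Conventional type 1 dendritic cells (cDC1) of the mouse thymus were described in a droplet sequencing experiment that had been sorted for iNKT cells, T cells with an invariant receptor for lipids on CD1d. The cDC1 were chosen by their counts of unique molecular identifiers (UMIs, each standing for 1 captured mRNA molecule). A cell needed at least 5 UMIs of H2-Aa, a class II chain, at least 5 of Cst3, cystatin C, at least 1 UMI of Xcr1 or Clec9a, and at most 1 of the B cell gene Cd79a. The cells that carry hashtags 11, 13, 15 and 17 had been called the stage 0 sort when the population was chosen. By this gate 397 of the 4249 cells carrying hashtags 11, 13, 15 and 17 were cDC1, which is 9.34% (95% Clopper-Pearson interval 8.48 to 10.3%), out of 16179 barcodes in the matrix.

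Thymi of 4 Ctrl mice were pooled, and so were thymi of 4 T-KO mice, in which floxed Kidins220 (Kidins220 fl/fl) was deleted by pLckCre. The proximal Lck promoter drives this Cre early in the T lineage, so the deletion was not designed for dendritic cells. The background was C57BL/6, no treatment was named, and ages were given only as a range over all experiments of the study. Stage 0 iNKT cells (TCRβ+, CD1d tetramer+, CD24+, NK1.1-) and stage 3 iNKT cells (TCRβ+, CD1d tetramer+, NK1.1+, CD24-, CD44+) were sorted in 2 parallel replicas, each population was marked with a hashtag antibody against CD45 and class I molecules, and all 8 were sequenced as 1 library. The paper found B cells, myeloid cells and double-positive and double-negative thymocytes in its first clustering and removed them. A poor CD1d tetramer stain in that sort is what it proposes as a possible reason for the thymocytes.

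The matrix numbers its hashtags differently from the sample labels, and nothing used here pairs hashtags 11 to 18 with a stage or a genotype. The 4 hashtag populations were therefore kept as unnamed populations of 1 pooled library, no genotypes or stages were compared, and no statistical test was made. Intervals cover counting error only. Hashtags 11, 13, 15 and 17 held 148 cDC1 of 1176 cells (12.6%), 133 of 1601 (8.31%), 89 of 889 (10.0%) and 27 of 583 (4.63%). Among the 5758 cells of hashtags 12, 14, 16 and 18, 2 cells passed the gate, both with hashtag 12, and the 0 cells of hashtags 14, 16 and 18 allow shares of up to 0.139, 0.52 and 0.237% by a limit of 3 counts, with upper Clopper-Pearson bounds of 0.17, 0.637 and 0.291%. A sort gate stood before all of these shares, and its part in them was not tested. Xist, the non-coding RNA of the inactive X chromosome, was at 6.49, 116, 171 and 114 CPM in the cDC1 of hashtags 11, 13, 15 and 17, so hashtag 11 stood apart from the other populations.

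cDC1 arise from Flt3-dependent precursors under the factors Irf8, Batf3 and Id2. They take up dead cells and pass the antigens to CD8 T cells on class I molecules. They carry Clec9a, a receptor for dead cells, and Xcr1, the receptor for the chemokine Xcl1. In the thymus, resident cDC1 and cDC2 present self antigens during negative selection, and cDC1 mature into Ccr7+ cells that carry antigen from medullary epithelium.

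The median cDC1 held 123 H2-Aa UMIs (10 to 287) and 269 Cst3 UMIs (6 to 699). Xcr1 and Clec9a together gave a median of 4 UMIs (highest 24), 65 cells held the single UMI that the gate asks for, and 259 cells held both, 75 only Xcr1 and 63 only Clec9a. Just outside the gate were 1 cell with 4 H2-Aa UMIs, 1 with 4 Cst3 UMIs and 7 with 2 or more Cd79a UMIs. In T lineage cells of the same hashtags (5 or more UMIs of 6 T cell genes, at most 1 of H2-Aa and 0 of Cd79a), which should lack these receptors, a UMI of Xcr1 was found in 0.447% and of Clec9a in 0.536%, at a median of 7173 UMIs per cell against 11943 in cDC1.

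The cDC1 were set beside 365 cells that met the same limits on H2-Aa, Cst3 and Cd79a without any UMI of Xcr1 or Clec9a, called Xcr1- Clec9a- class II-high cells or comparison cells below, and beside all 3852 other cells of the hashtags. The median cDC1 held 11943 UMIs (2124 to 31649) and 3319 genes, against 8612 UMIs in the Xcr1- Clec9a- class II-high cells and 6585.5 in all other cells. Mitochondrial UMIs had a median of 1.09% in cDC1 and 1.36% in the Xcr1- Clec9a- class II-high cells. Levels below are in CPM, the UMIs of a gene per 1000000 UMIs of the summed cells of a group, and a gene was called when its summed log2 ratio (pseudocount of 10 CPM) was past 2-fold and had 1 sign in all 4 hashtag populations.

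The label was checked against its markers first, and the 4 outside the gate were all on the side the label gives. Irf8, the factor that cDC1 development depends on, was at 1810, 1581, 1795 and 1529 CPM in the cDC1 of hashtags 11, 13, 15 and 17. In the Xcr1- Clec9a- class II-high cells it was at 161, 278, 325 and 197, with no overlap, a ratio of 7.70 over the summed cells. Such a lack of overlap, with cDC1 above, was found in 16.9% of all genes tested. Naaa, a lysosomal amidase, was at 980, 869, 1014 and 1087 in cDC1 and at 149, 207, 168 and 255 in the comparison cells. These genes were found in nearly every cDC1, Irf8 in 97.7% and Naaa in 98.0% of cells, against 27.9% and 55.1% of the comparison cells. Ifi205, an interferon-inducible PYHIN gene, was at 734, 610, 647 and 514 against 42.9, 77.3, 101 and 30.6. Plbd1, a phospholipase B-like protein, was the least exclusive of the 4 markers outside the gate, at 2020.4 against 844 over the summed cells and in 88.2% of the comparison cells. The gate chose cells by genes that accompany these, so the differences describe the population and support nothing further. Ifi205 and Gpr141b belong to families of similar genes, whose reads the counting could have split.

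Genes of the wider cDC1 list were higher as a group. Of 6063 genes past the expression filter (a mean of at least 20 CPM over both groups), 112 were called higher in cDC1 than in the Xcr1- Clec9a- class II-high cells, 1.85%, and 297 were called lower, 4.9%, which makes 6.75% in either direction. Genes near 0 in 1 group passed this filter by their level in the other, so such genes could be called only 1 way. Without the cells of either group with 5 or more T cell UMIs, 127 were called higher and 305 lower. All 4 of the markers outside the gate and 12 of 23 genes of the wider list were called higher, and none of either was called lower. The median log2 ratio was 2.64 for the markers and 1.17 for the wider list, beside 0.04 for all genes tested. In 1026 genes (16.9%) every hashtag population of cDC1 was above every one of the comparison cells, and in 907 (15%) every one was below.

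**Figure D1:**
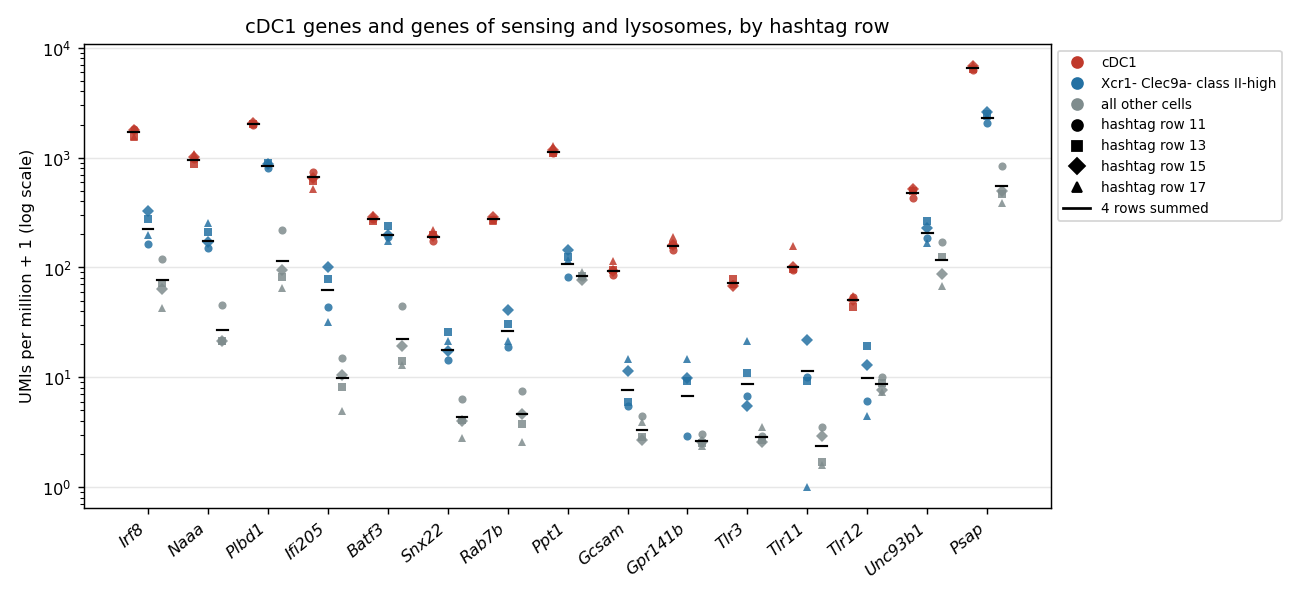
CPM plus 1 on a log axis for cDC1 genes and genes of sensing and lysosomes. Colours are cDC1, Xcr1- Clec9a- class II-high cells and all other cells, symbols are hashtags 11, 13, 15 and 17, and black lines are the summed cells. The 4 cDC1 points of Irf8 lie between 1529 and 1810 and those of the comparison cells between 161 and 325, while Batf3 lies closer together, at 277 and 197 over the summed cells.

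The highest log2 ratios included genes of endosomes and lysosomes. Gpr141b, an orphan receptor, was at 145, 160, 159 and 189 CPM in cDC1 and at 1.92, 8.23, 8.91 and 13.6 in the comparison cells, a ratio of 27.2. Ppt1, a lysosomal thioesterase, was at 1111, 1092, 1181 and 1285 against 81.3, 123, 143 and 116. Rab7b, a GTPase of late endosomes, was at 274, 271, 289 and 261 against 17.9, 29.6, 40.1 and 20.4. None of the 3 genes, which were picked by their ratio, overlapped between the groups, as was so for 16.9% of all genes tested. Rab7b was found in 90.4% of cDC1 and 8.77% of the comparison cells. Snx22, a sorting nexin, reached 11.2-fold (189 against 16.9 CPM), and Mpeg1, the pore-forming perforin-2, reached 6.14-fold (721 against 117). The further genes among the 12 highest ratios were Gcsam (13.6-fold), Dbn1, an actin-binding protein (8.55-fold), Cd36, a scavenger receptor (19.01-fold), Tlr11, Irf8, Naaa and Ifi205.

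Several factors and receptors of the cDC1 programme were also present in the Xcr1- Clec9a- class II-high cells and were not called. A gene without a call need not be equal in both groups, and Id2 lay just under the 2-fold limit. Batf3, the partner of Irf8, was at 277 CPM in cDC1 and 197 in the comparison cells. Id2 was at 835 against 419, Zbtb46, a factor of conventional dendritic cells, at 101 against 104, and Flt3, the receptor for the growth factor of the lineage, at 228 against 152. Wdfy4, needed for cross-presentation, was at 753 against 413 (log2 ratio 0.85). Itgae, the integrin chain CD103, was at 82.4 against 77.2 and Itgax, CD11c, at 144 against 267. All 7 of these genes were called higher in cDC1 than in all other cells of the hashtags, which include the Xcr1- Clec9a- class II-high cells and in which Batf3 was at 21.2 and Zbtb46 at 14.5.

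Against all other cells of the hashtags, 458 of 6536 genes (7.01%) were called higher in cDC1 and 532 (8.14%) lower, 15.1% in either direction. In 1243 genes (19%) every population of cDC1 was above every one of the other cells, and in 2442 (37.4%) below. The 8 highest ratios were those of Ifi205 (74.7-fold), Naaa (36.8-fold), Mpeg1 (28.9-fold), Rab7b (74.99-fold), Irf8 (22.5-fold), Plbd1 (17.7-fold), Snx22 (55.9-fold) and Ckb, the brain-type creatine kinase (17.8-fold), ranked by the log2 ratio with its pseudocount. All 4 markers outside the gate and 18 of 22 genes of the wider cDC1 list were called higher. All 15 tested T cell genes, all 7 tested B cell genes and all 5 tested genes of double-positive thymocytes were called lower. The gate limits Cd79a, and genes low in cDC1 passed the filter by their level in the other cells. These counts therefore describe the groups and support nothing further. Against the comparison cells, 7, 3 and 3 genes of these lists were tested and none was called.

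Some receptors for microbial ligands inside endosomes were on the cDC1 side. Tlr3, the receptor for double-stranded RNA, was at 70.4, 77.4, 66.7 and 69.1 CPM in cDC1 and at 5.76, 9.87, 4.46 and 20.4 in the comparison cells. Tlr11, which senses profilin, was at 94.2, 94.9, 100.1 and 156 against 8.97, 8.23, 20.8 and 0, the last from 38 cells. Tlr12, its partner, was at 49.1 against 8.93 over the summed cells, and Unc93b1, the chaperone that carries these receptors to endosomes, at 476 against 207. These 4 were the called genes on the higher side among 10 tested genes of sensing, beside 1.85% of all genes tested. Ddx58, which encodes the cytosolic RNA sensor RIG-I, was the 1 called lower, at 4.40 against 51.0, and Tlr9 was at 33.8 against 21.4 without a call. Tlr7 gave 1 UMI in the cDC1 with both Xcr1 and Clec9a and 0 in those with only 1 of them.

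Promoters are shown for the gate genes Xcr1 and Clec9a and for the cDC1 list genes Ifi205 and Tlr11, since these were the list's only promoters with an IRF repeat. This search was added after the data were seen. The repeat was searched as GAAANNGAAA on both strands in RefSeq promoters of GRCm38.p6, from 250 bases before to 50 after each start, and its matches are in capitals.
Ifi205, chr1:174031706-174032005, minus strand: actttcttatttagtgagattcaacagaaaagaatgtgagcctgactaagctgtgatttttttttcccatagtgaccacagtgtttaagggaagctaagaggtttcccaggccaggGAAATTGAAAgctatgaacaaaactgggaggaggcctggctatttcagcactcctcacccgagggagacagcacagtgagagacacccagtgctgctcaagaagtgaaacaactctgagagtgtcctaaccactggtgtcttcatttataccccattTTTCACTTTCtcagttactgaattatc
Tlr11, chr14:50357664-50357963, plus strand: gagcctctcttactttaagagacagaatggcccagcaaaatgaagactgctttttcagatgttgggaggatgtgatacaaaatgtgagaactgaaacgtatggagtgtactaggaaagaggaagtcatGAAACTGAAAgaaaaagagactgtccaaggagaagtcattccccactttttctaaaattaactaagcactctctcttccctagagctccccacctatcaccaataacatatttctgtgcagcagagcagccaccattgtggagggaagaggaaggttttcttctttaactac
Xcr1, chr9:123861980-123862279, minus strand: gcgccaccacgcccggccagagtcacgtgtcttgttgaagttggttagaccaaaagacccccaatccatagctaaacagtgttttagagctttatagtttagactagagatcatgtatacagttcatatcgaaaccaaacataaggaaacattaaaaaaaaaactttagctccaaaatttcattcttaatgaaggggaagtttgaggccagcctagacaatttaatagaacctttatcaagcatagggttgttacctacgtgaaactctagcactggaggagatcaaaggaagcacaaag
Clec9a, chr6:129408612-129408911, plus strand: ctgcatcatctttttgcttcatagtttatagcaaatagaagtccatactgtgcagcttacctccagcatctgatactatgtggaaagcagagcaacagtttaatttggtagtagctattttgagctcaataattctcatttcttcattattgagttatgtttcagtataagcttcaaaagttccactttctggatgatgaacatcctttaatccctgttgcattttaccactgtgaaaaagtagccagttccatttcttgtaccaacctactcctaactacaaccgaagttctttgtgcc

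The repeat stood in 3.44% of all 32851 promoters and in 3.47% of those of the genes tested. It stood in 5 of 115 promoters of genes called higher in cDC1 (4.35%, from 92 of the 112 genes matched) and in 23 of 278 of genes called lower (8.27%, from 231 of the 297 genes). Besides Ifi205 and Tlr11 the higher genes with a match were Ece1, Gpr141b and Ifi211. The lower genes with a match included Ifit1, Ifit3, Oas1a, B2m and Cybb. Another pair of motifs was searched in the same way. GGAANNGAAA, a composite of ETS and IRF sites, stood in 0.870% of promoters of genes called higher, 6.12% of those called lower and 2.62% of those tested, and TGANTCA, of AP-1, in 5.22, 10.8 and 4.80%. A match describes these letters in these windows only.

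Lipid presentation was looked at because iNKT selection depends on CD1d. Psap, the precursor of the saposins that load lipids onto CD1d, was at 6340, 6432, 6766 and 6955 CPM in cDC1 and at 2081, 2476, 2611 and 2379 in the comparison cells, 2.83-fold with no overlap. It was at 549.6 in all other cells of the hashtags. Psap was the 1 called gene of 6 tested genes of lipid presentation. Among all genes tested 1.85% were called higher, and 16.9% had every cDC1 population above every one of the comparison cells. Cd1d1 itself was low, at 15.1 CPM in cDC1, 11.2 in the comparison cells and 34.2 in T lineage cells.

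Class II genes were at high levels in both groups. Cd74, the invariant chain, was at 30400 CPM in cDC1 and 37045 in the comparison cells, and H2-Ab1 was at 7971 against 9932. None of 14 tested genes of class II presentation was called higher and 4 were called lower, beside 4.9% of all genes tested. These were H2-DMb2, a chain of the class II peptide editor (120.0 against 527), Ctss, the protease cathepsin S (316 against 992), Ifi30, a lysosomal thiol reductase (1207 against 2586), and H2-Eb2 (2.73 against 52.6). H2-DMb1 was at 1070 against 783 without a call, so the DM beta genes lay in opposite directions from the comparison cells.

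Of the class I chains, B2m and H2-K1 were called lower in cDC1 and H2-D1 was not (1527 against 2304), while proteasome and peptide loading genes were not called. B2m, the light chain, was at 835, 826, 830 and 811 CPM in cDC1 and at 2097, 2300, 1978 and 2181 in the comparison cells. H2-K1, a heavy chain, was at 776, 728, 739 and 736 against 1549, 1763, 1543 and 1559. Neither gene overlapped between the groups, and 15% of all genes tested lay below the comparison cells in this way. Psmb9, an immunoproteasome chain, was at 659 against 391, Tap2, of the peptide transporter, at 217 against 138, and Rab43, a GTPase of cross-presentation, at 213 against 116, none of them past 2-fold. Cybb, the NADPH oxidase chain gp91phox, was the third called gene of 19 tested for class I and cross-presentation, at 4.82 against 85.8.

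The hashtag antibodies bind CD45 and class I molecules, and their UMIs followed the same order between groups. The median cDC1 held 1813, 1651, 1625 and 2780 hashtag UMIs in populations 11, 13, 15 and 17, and the median Xcr1- Clec9a- class II-high cell 3236, 3349, 3513.5 and 4343. T lineage cells held 1243.5, 1303.5, 1273.5 and 1858. cDC1 therefore lay between the T lineage cells and the comparison cells in every population. Ptprc, which encodes CD45, was at 261 CPM in cDC1, 345 in the comparison cells and 357 in T lineage cells.

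**Figure D2:**
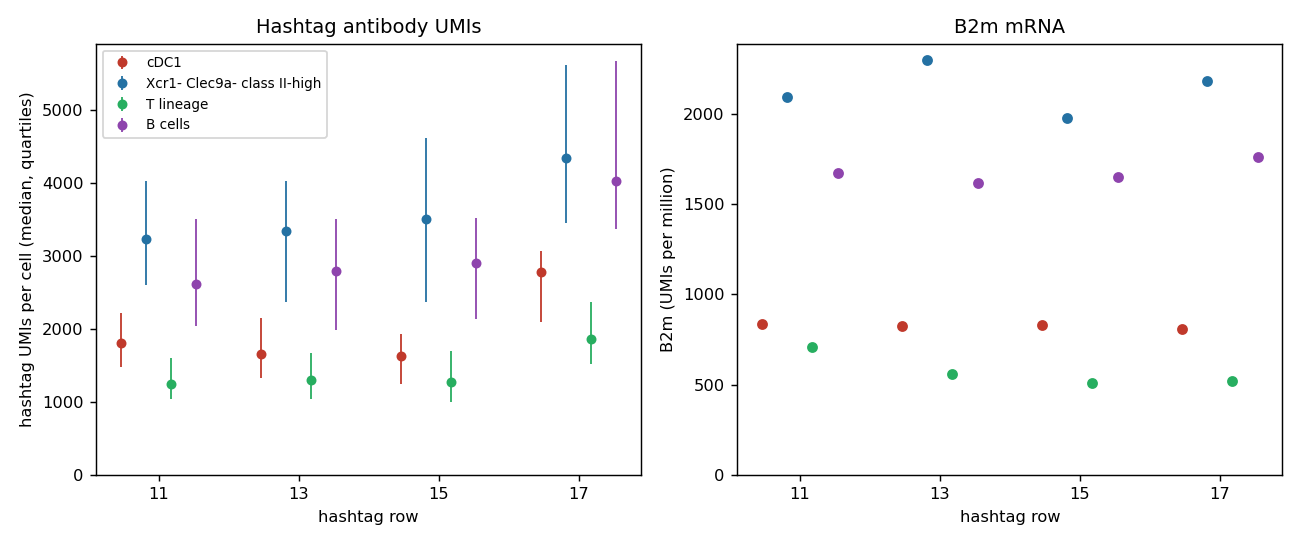
Left, hashtag UMIs per cell (median, bars are quartiles) by hashtag population for cDC1, Xcr1- Clec9a- class II-high cells, T lineage cells and B cells. Right, B2m in CPM of the summed cells. In both plots cDC1 lie between T lineage cells and the Xcr1- Clec9a- class II-high cells in all 4 populations, with B2m between 811 and 835.

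cDC2 genes were low in cDC1. Of 14 tested genes of the cDC2 list, 12 were called lower and none higher (median log2 ratio -2.66), and Klf4 and Ccr2 were not called. Sirpa, the inhibitory receptor that marks cDC2, was at 5.41, 4.55, 0.953 and 3.00 CPM in cDC1 and at 244, 220, 183 and 245 in the comparison cells. Only 2.77% of cDC1 held a Sirpa UMI, against 70.7% of the comparison cells. S100a4, a calcium-binding protein, was at 105, 64.4, 56.3 and 15.02 against 1452, 1301, 1323 and 1147. Irf4, the factor of cDC2, was at 7.34 against 85.8, and Zeb2, a repressor of the cDC1 fate, at 7.34 against 89.3. Tmem176b, a membrane protein of uncertain role, was 23.6-fold lower, and Ear2, a ribonuclease, 37.8-fold lower. Mmp12, macrophage elastase, gave 3 UMIs in all cDC1 and 621 in the comparison cells.

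**Figure D3:**
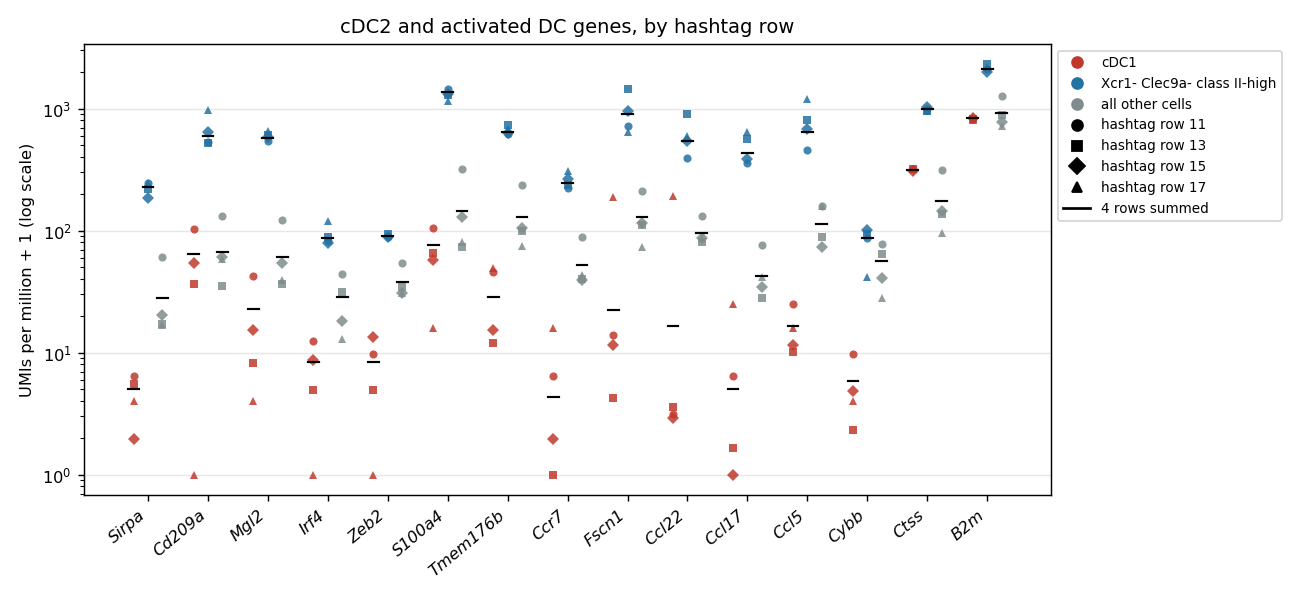
CPM plus 1 on a log axis for cDC2 genes, genes of activated dendritic cells and 3 antigen-processing genes, with colours for the 3 groups, symbols for hashtags 11, 13, 15 and 17 and black lines for the summed cells. Points at 1 stand for 0 UMIs. The cDC1 of hashtag 17 stand above the other cDC1 for Fscn1 (186) and Ccl22 (192). For each gene nearly all of this level came from 1 cell, with 61 and 64 UMIs. Ctss and B2m show the smallest spread among cDC1.

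Genes of activated dendritic cells were also low. Ccr7, the chemokine receptor of migrating dendritic cells, had a UMI in 4 cDC1, 1.01% (95% interval 0.275 to 2.56%), and in 53 comparison cells, 14.5% (11.1 to 18.6%). After thinning each cell to 2000 UMIs the shares were 0.756% and 12.1%. T lineage cells and B cells held Ccr7 UMIs in 7.95% and 27.9%, so the share in cDC1 was below that of every other group examined. The gate asks for a UMI of Xcr1 or Clec9a, so class II-high Ccr7+ cells without either lie among the comparison cells by rule. The part of the gate in the Ccr7 share and in the levels below was not tested. Of 19 tested genes of the activated list, 17 were called lower in cDC1 and none higher (median log2 ratio -2.87), beside 4.9% called lower over all genes. Those near 0 in cDC1 passed the expression filter only by their level in the comparison cells and could be called only lower. This count therefore describes the groups and supports nothing further. Ccl17, a ligand of Ccr4, was at 5.41, 0.65, 0 and 24.02 CPM in cDC1 and at 360, 564, 385 and 643 in the comparison cells. Ccl5 was at 15.5 against 642, Fscn1, an actin-bundling protein of dendritic processes, at 21.4 against 906, and H2-M2, a non-classical class I gene, at 8.81 against 352.

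What little of this programme the cDC1 held came from few cells. Of the 74 Ccl22 UMIs in cDC1, 64 (86.5%) lay in 1 cell, and of the 102 Fscn1 UMIs 61 (59.8%) lay in 1 cell. A sum of 10 or more UMIs of Ccr7, Fscn1, Ccl22 and Il4i1 was found in 5 cDC1 (1.26%) and in 63 comparison cells (17.3%). A comparison of cDC1 with and without Ccr7 would rest on 4 cells and is given only as levels. The 4 Ccr7+ cells had Fscn1 at 1438 CPM and Irf8 at 978, and the 393 without Ccr7 had Fscn1 at 6.36 and Irf8 at 1721. The Ccr7+ comparison cells had Irf8 at 216 and none of them held a UMI of Naaa or Ifi205.

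Among costimulatory ligands, Cd86 was at 175, 144, 152 and 177 CPM in cDC1 and at 83.2, 117, 59.4 and 57.8 in the comparison cells, 1.95-fold higher without a call. Cd40, Icosl, Cd274 (PD-L1) and Pdcd1lg2 (PD-L2) were called lower, 4 of 7 tested genes. Over all genes tested 4.9% were called lower. Cd274 was at 1.47 against 42.4 and Pdcd1lg2 at 0.629 against 43.4. Both passed the expression filter only by their level in the comparison cells, so they could be called only lower. Of 4 tested chemokine receptors 2 were called lower and 1 higher (median log2 ratio -0.54), beside 4.9% and 1.85% of all genes tested. The higher one was Cxcr3, at 37.3, 32.5, 46.7 and 30.0 against 7.04, 4.94, 8.91 and 10.2. Btla, an inhibitory receptor of the wider cDC1 list, was at 133 against 39.2.

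**Figure D4:**
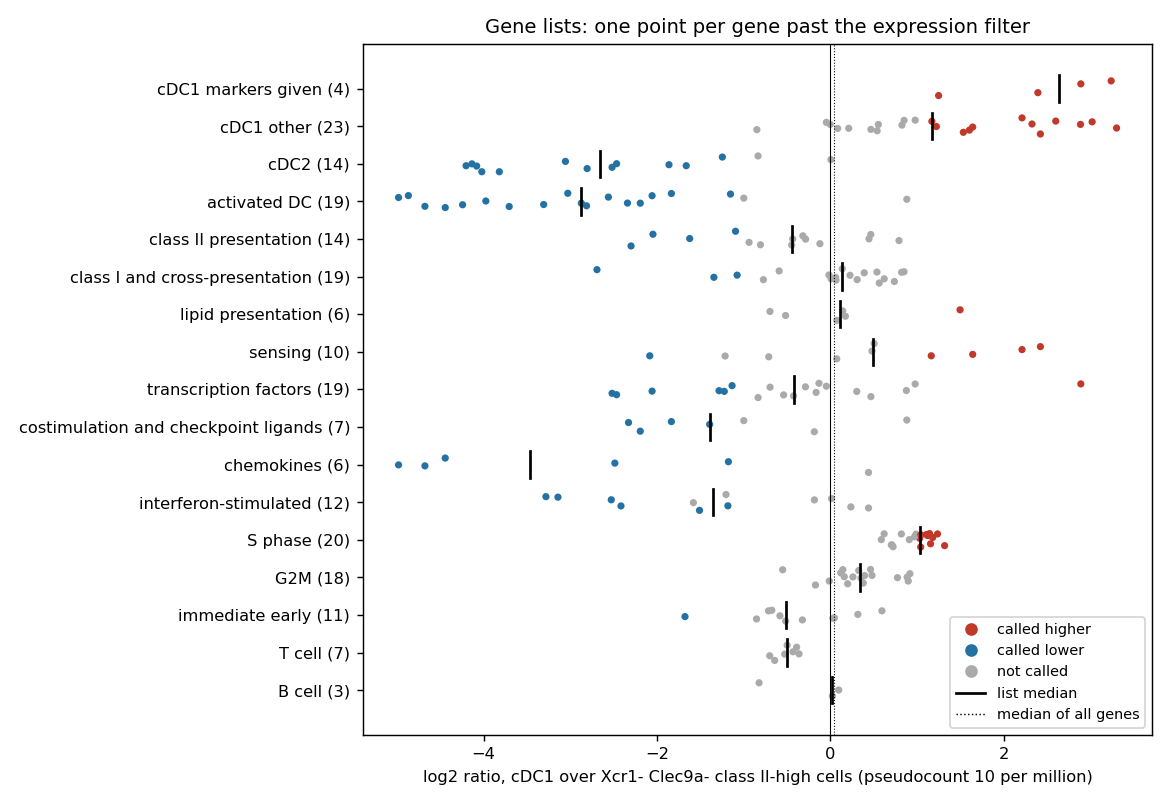
Log2 ratios of cDC1 over Xcr1- Clec9a- class II-high cells (pseudocount of 10 CPM) by gene list, with 1 point per tested gene, red for genes called higher, blue for genes called lower and grey for the rest. Black bars are list medians and the dotted line is the median of all genes, 0.04. The cDC1 lists lie to the right, the cDC2 list (median -2.66) and the activated list (median -2.87) to the left, and the S phase list around 1.04.

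Transcription factors gave 1 call on the higher side, Irf8, and 6 on the lower side among 19 tested, beside 1.85% and 4.9% of all genes. The lower ones were Irf4, Zeb2, Relb, an NF-kB subunit of mature dendritic cells (39.6 against 196 CPM), Rel (58.5 against 140.3), Cebpa (18.5 against 56.4) and Tcf4, the factor of plasmacytoid dendritic cells (38.4 against 108). Spi1, PU.1, was at 548 against 615, and Zfp366, also called DC-SCRIPT, at 110 against 55.2, without a call. Of the markers of plasmacytoid dendritic cells 4 of 10 were tested and 2 called lower, and of those of macrophages and monocytes 4 of 15 were tested and 1 called lower, Csf1r. Klk1 had 0 UMIs, Siglech was at 4.61, C1qa and C1qb had 1 UMI each, C1qc 0 and Mertk 1, whereas Lyz2 was at 222 against 439, Bst2 at 311 against 565, Cd68 at 225 against 221 and Ly6d at 34.2 against 33.5. The summed plasmacytoid list was at 321 to 479 in the cDC1 populations and at 568 to 1005 in those of the comparison cells. The summed macrophage and monocyte list was at 452 to 536 in the cDC1 populations and at 647 to 1603 in those of the comparison cells. The thymic epithelial genes Psmb11, Aire, Krt5 and Foxn1 had no UMI in cDC1, and Epcam was at 16.2 against 365.

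A large share of cDC1 held transcripts of dividing cells. Mki67 or Top2a had a UMI in 224 cDC1, 56.4% (51.4 to 61.4%), and in 40.8% of the comparison cells. Since cDC1 were deeper, cells were thinned to 2000 UMIs, leaving out 2 comparison cells, 107 T lineage cells and 9 B cells, and the shares were then 33.0% (28.4 to 37.9%) in cDC1, 21.2% (17.1 to 25.8%) in the comparison cells, 49.1% in T lineage cells and 19.5% in B cells. Of 20 tested S phase genes 11 were called higher in cDC1 (median log2 ratio 1.04), and of 18 tested genes of G2 and mitosis none was called (median 0.34), of which 15 lay above 0. Among all genes tested 1.85% were called higher. Mcm6, of the replicative helicase, was at 209, 232, 190 and 168 CPM in cDC1 and at 86.5, 100.4, 89.1 and 71.5 in the comparison cells. Ube2c, a ubiquitin-conjugating enzyme of mitosis, was at 169 against 171. The T lineage level of Mcm6 was 419.8.

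Dividing cDC1 were described by a split added after the data were seen. A sum of 5 or more UMIs of Mki67 and Top2a was found in 104 cDC1, 26.2% (21.9 to 30.8%), and in 31.1, 24.1, 22.5 and 22.2% of those of hashtags 11, 13, 15 and 17. Their median depth was 16963.5 UMIs, against 10468 in the 173 cDC1 with none. Of 5933 genes tested, 304 were called higher in the dividing cDC1 (5.12%) and 27 lower (0.455%), in the 3 populations with at least 20 cells of each. All 18 tested genes of G2 and mitosis and 17 of 20 of S phase were among the higher ones, led beside Mki67 and Top2a by Pclaf, a PCNA clamp factor (686 against 19.6 CPM), and Birc5, survivin (309 against 4.49). The cells were chosen by Mki67 and Top2a, which belong to the list of G2 and mitosis. Genes low in the other cDC1, such as Birc5, passed the expression filter only by their level in the dividing cells. The counts of cell cycle genes in this paragraph therefore describe the split and support nothing further. T cell genes moved with the dividing cells, with 1 of 7 tested called higher and a median log2 ratio of 1.00. Of the 13 cDC1 with 5 or more T cell UMIs 9 were among the dividing cells and 1 among those with none, and without them 16 of 20 S phase genes and 18 of 18 of G2 and mitosis were called higher, and of the 2 T cell genes still tested 1 was called lower. The 4 markers outside the gate had no call in either direction, with Irf8 at 1591 in dividing cDC1 and 1841 in the rest.

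Of the lists, 2 of 7 tested genes of activated dendritic cells and 1 of 5 interferon-stimulated genes were called lower in dividing cDC1, with list medians of -0.47 and -0.88. Slfn5, a Schlafen gene, was at 36.2 against 153 CPM, Irf7 at 167 against 469 and Ly6a at 129 against 290. Cd40 was at 21.7 against 80.3 and Cd83 at 64.0 against 156. The stress genes Zfp36 (312 against 721) and Atf3 (61.6 against 158) and the cell cycle inhibitor Cdkn1a (29.6 against 85.3) were also called lower. CPM values fall for other genes when a group of genes fills more of a cell, and the part of this in the lower values was not tested. The median log2 ratio of all genes tested was 0.04.

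**Figure D5:**
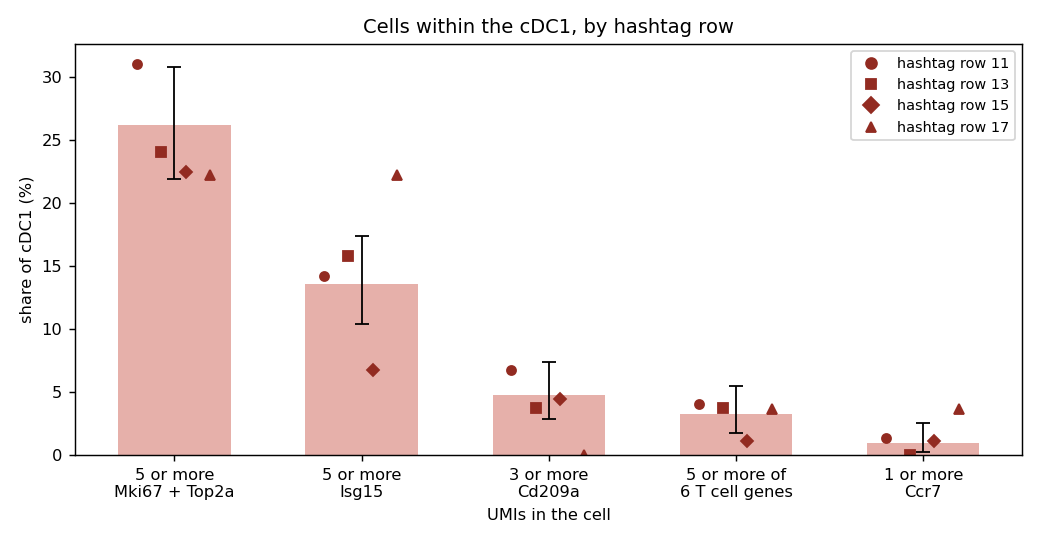
Share of the 397 cDC1 (%) that held the given number of UMIs, with bars for all cDC1, error bars for the 95% Clopper-Pearson interval and symbols for hashtags 11, 13, 15 and 17. Dividing cells make up 26.2% (22.2 to 31.1% by population), cells with 5 or more Isg15 UMIs make up 13.6% and range from 6.74% to 22.2%, and Ccr7+ cells make up 1.01%.

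Interferon-stimulated genes were uneven among cDC1. Isg15 had a UMI in 33.8% of cDC1 and in 55.3% of the comparison cells. Of 12 tested interferon-stimulated genes 6 were called lower in cDC1, among them Oasl2 (4.61 against 132 CPM), Rtp4 (4.82 against 121) and Ifit3 (3.36 against 67.0). These 3 passed the expression filter only by their level in the comparison cells, so they could be called only lower. The share called lower over all genes tested was 4.9%. Irf7 was at 369 against 365, without a call. Isg15 itself was at 163, 200.3, 77.2 and 174 in cDC1 and at 602, 360, 501 and 133 in the comparison cells, so hashtag 17 lay in the opposite direction and the gene was not called.

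At least 5 Isg15 UMIs were found in 54 cDC1, 13.6% (10.4 to 17.4%), a split that was also added after the data were seen. The populations held 21, 21, 6 and 6 of these cells, 14.2, 15.8, 6.74 and 22.2% of their cDC1. Against the 263 cDC1 without Isg15, 86 of 5793 genes were called higher (1.48%) and 47 lower (0.811%), from the 2 populations with enough cells. Beside Isg15, all 8 tested interferon-stimulated genes were among the higher ones. The cells were chosen by a gene of that list, and genes low in the other cDC1 passed the expression filter only by their level here. This count therefore describes the split and supports nothing further. Irf7 was at 1219 against 158 CPM, Ly6a at 764 against 95.9, Ifitm3 at 464 against 64.8 and Ifit2 at 75.3 against 1.65. Ifi205 was at 1149 against 556, the 1 called of the 4 markers outside the gate. Cxcl9, the ligand of Cxcr3, was at 131 against 12.9, with 34.0% of all its UMIs in cDC1 in 1 cell.

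Ccl22 and Fscn1 were also called higher in these cells, at 93.4 against 1.65 and 104.6 against 5.62 CPM, and both rested on the activated cells named above. Without the 5 cDC1 with 10 or more activated UMIs, Ccl22 was at 2.90 against 1.66 and Fscn1 at 4.34 against 3.33, while Irf7 was at 1254 against 156 and Cxcl9 at 136 against 12.97. Mitotic genes were on the lower side. Beside Mki67 (119 against 339), 7 of 14 tested genes of G2 and mitosis were called lower in the Isg15-high cDC1, and none of 20 S phase genes was called lower. Ccr2 (78.1 against 198), Lyz2, lysozyme (100.4 against 270), and Cd209a (5.58 against 62.2) were lower too.

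Some cells at the edge of the gate carried cDC2 genes. Of the 397 cDC1, 65 held a single UMI of Xcr1 and Clec9a and 332 held more. The 65 cells had Cd209a, a lectin of cDC2, at 292 CPM, S100a4 at 325 and Sirpa at 24.9, and the 332 had them at 27.2, 35.9 and 0.727. Irf8 was at 1541 and 1740 in these cells and Naaa at 651 and 1007, against 223 and 174 in the comparison cells. Itgae was at 15.5 and 92.9, against 77.2 in the comparison cells, and Zbtb46 was at 103 in the 65 cells against 104, so the cDC1 genes did not all go the same way. Median depth was 9421 and 12341 UMIs.

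Of the 300 Cd209a UMIs in cDC1, 290 lay in 19 cells with 3 or more, a split added after the data were seen, found 10, 5, 4 and 0 times in the 4 populations. They had Mgl2, another cDC2 lectin, at 471 CPM, S100a4 at 622, Irf4 at 127 and Sirpa at 75.4, where the other 378 had 0.878, 49.4, 1.76 and 0.659. The same 19 cells had Irf8 at 943, Naaa at 636, Snx22 at 56.6 and Ifi205 at 330, above the comparison cells (223, 174, 16.9 and 60.9) and below the other cDC1 (1749, 974, 195 and 675). Their median of 10355 UMIs was below that of the other cDC1, 12002.5. The 65 cells with a single UMI of Xcr1 and Clec9a held 12 of the 19. The other 53 had Cd209a at 3.79, Sirpa at 1.89 and S100a4 at 205, with Irf8 at 1733, Naaa at 718 and Itgae at 11.4. No doublet caller was run, and the part of mixed droplets in these cells was not tested.

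On the other side of the gate some cells held cDC1 genes. A sum of 10 or more UMIs of Naaa, Ifi205, Snx22, Tlr3, Gcsam and Rab7b was found in 361 cDC1 (90.9%, median 25 UMIs) and in 21 comparison cells (5.75%, median 1).

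cDC1 with only Clec9a differed from those with only Xcr1. Itgae was at 7.65 CPM in the 63 Clec9a-only cells, 106 in the 75 Xcr1-only cells and 91.3 in the 259 cells with both. Cd86 was at 82.6, 156 and 176, Naaa at 661, 935 and 1025, and Cd209a at 336, 51.4 and 11.3. The Clec9a-only cells held 11 and the Xcr1-only cells 4 of the 19 cells with 3 or more Cd209a UMIs. Without these, Cd209a was at 9.04, 0 and 1.56, Itgae at 7.23, 109 and 92.7, Cd86 at 90.4, 164 and 179, and Naaa at 689, 967 and 1025. The shares of Clec9a-only cells were 11.5, 21.1, 19.1 and 3.70% of the cDC1 in the 4 populations, and their median depth was 9412 UMIs against 11177 in the Xcr1-only cells.

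The sort had selected cells positive for the T cell receptor beta chain and CD1d tetramer, so T cell transcripts were counted in cDC1. The 16 genes of the T cell list were between 2.72% and 9.23% of their level in T lineage cells (median 4.77%), and none of the 7 tested against the comparison cells was called. Of the 796 UMIs of 6 T cell genes in cDC1, 52.9% lay in 13 cells with 5 or more, and 159 cDC1 held none. Without the 13 cells, whose median depth was 22457 UMIs, the list was at a median of 2.16% of the T lineage level. Mcm2, of the S phase list, was at 220.5 in the 13 cells and 91.5 in the other 384.

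Immunoglobulin transcripts were spread over all groups. Ighm had a UMI in 78.8% of cDC1, 59.4% of T lineage cells and 53.6% of B cells, and after thinning in 31.5, 28.7 and 41.6%. The ratio of Ighm to Igkc UMIs was 7.47 in cDC1, 8.92 in T lineage cells and 0.269 in B cells. Kidins220, the gene deleted in T-KO mice, was at 19.5, 22.8, 14.3 and 15.02 CPM in the cDC1 of hashtags 11, 13, 15 and 17 and at 17.5 in the comparison cells and 17.4 in T lineage cells, from 91 UMIs in all cDC1. These levels do not tell the genotype of a hashtag population.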

How the data were processed

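UMI counts per gene and cell were deposited by the authors as 1 matrix made with Cell Ranger 6.0.0 on mm10, with hashtag counts in the same matrix, and were used as deposited. Cells needed at least 1000 genes, at most 5% mitochondrial UMIs and 1 hashtag with at least 80% of at least 10 UMIs on hashtags 11 to 18. UMIs were summed per group and hashtag population and divided by the total (CPM, per 1000000 UMIs), with exact Poisson intervals for sums and Clopper-Pearson intervals (95%) for shares. Named genes were the gate genes and markers, the gene lists, Kidins220, and the 12 highest, 12 lowest and, against all other cells, 8 highest called ratios. Genes of the gate were left out of calls. Ccl19, Clec7a and Mx1 were not analysed here. Members and lists were chosen with earlier results of these data known, and the motif search and the splits of cDC1 by Mki67 and Top2a, Isg15 and Cd209a, the T lineage cells and the B cells (5 or more Cd79a UMIs) were added after seeing the data. The 2 parallel replicas lie inside the pooled library, but without a key from hashtag row to population they could not be used as replicates, so no test was made. The call rule was tested on simulated data, drawn with counting error only from the summed profile of the comparison cells. Spread between cells or hashtag populations was not simulated, so the rule's errors under such spread were not tested. Alternatives changed the filters, gate, pseudocount and populations. Python 3.11.15, numpy 2.4.6, scipy 1.17.1 and pandas 2.3.3 were used.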

Additional observations from a re-analysis of the deposited data

Results flagged for a closer look

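A hashtag outside the 8 used for assignment gave a signal in cDC1. Hashtag row 4 of the matrix held 620 UMIs in the 397 cDC1, at most 22 in a cell and 10 or more in 15 cells, of 11854 in the whole matrix. Hashtag row 1, also unassigned, held 8 UMIs in cDC1 and 12255 in the matrix. The labels do not say what these rows hold.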

How the results depend on the processing

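One pooled library limits every value: hashtag populations are not replicates of a condition, the cDC1 of hashtag 17 number 27, and the calls are rules of size. The share of cDC1 (9.34%) was 10.9% with hashtags holding at least 95% of UMIs, 7.63% with 500 genes and 10% mitochondrial UMIs, and 7.81% with at least 2 UMIs of Xcr1 and Clec9a, and 9.20% in both other settings. Calls against the Xcr1- Clec9a- class II-high cells (112 higher, 297 lower) were 201 higher with a pseudocount of 1, 37 and 119 with 50, 454 lower with no expression filter, and 71 and 151 with a mean of at least 50. Against all other cells (458 and 532) they were 231 and 233 with a pseudocount of 50, 821 lower with no filter, and 302 and 275 with a mean of at least 50. Leaving out 1 hashtag population gave 114 to 137 higher and 299 to 308 lower genes, and 439 to 505 and 501 to 605 against all other cells. Without Ccr7+ cells 86 of the 112 higher and 206 of the 297 lower genes were called again, and Serpinb6b, a serine protease inhibitor, turned to a log2 ratio of 0.10. Among 94 named called genes, 991 of 1127 log2 values moved by less than the SD over populations. Settings chosen after seeing the data gave 42 lower genes with 10 Mki67 and Top2a UMIs (main 27) and 30 with 3 Isg15 UMIs (main 47). The share with Mki67 or Top2a fell from 56.4% to 33.0% on thinning. No paired analysis was possible because no source matches the hashtag rows of the matrix to the replicas.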
